A study of Danio rerio with 5 samples.

Results

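The globin genes described here were hbae3, hbbe3, hbbe2 and hbaa1, chosen by their gene symbol in the array's annotation, 4 of 8793 genes that had a probe set of their own. They were read by 5 of the 15617 probe sets on the array, 2 of them for hbae3 and 1 for each other gene. The names give the chain and the stage: hbae3 codes for an embryonic alpha globin, hbbe3 and hbbe2 for embryonic beta globins and hbaa1 for an adult alpha globin. In the RefSeq gene table of assembly GRCz12tu, hbae3 and hbaa1 share a chromosome, where hbae3 has hbae1.3 as a neighbour and hbaa1 lies next to hbba1. The genes hbbe3 and hbbe2 are neighbours of each other on a different chromosome, beside hbae4 and hbae5.

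Hemoglobin is built from alpha-type and beta-type globin chains, each of which holds a heme group with iron at its centre. In zebrafish embryos the first red cells enter the circulation carrying embryonic globins, and adult globins take over later in development. Globin transcripts are therefore among the most abundant messages of an embryo with circulating blood and are widely used to mark the erythroid lineage. Bdh2 is a dehydrogenase tied by earlier work to an iron-binding small molecule of mammals, the siderophore, and the study asked how its loss bears on the embryo's transcripts.

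RNA came from whole wild-type zebrafish embryos at 72 h after fertilization, and each sample was hybridised to its own Affymetrix array. A single array held Bdh2 morphants, embryos injected with a morpholino against Bdh2, that also received a synthetic capped mRNA of mouse Bdh2 at 50 µg/ml. Bdh2 morphants without that mRNA gave 2 arrays, and control morphants gave 2 arrays. All embryos were injected with morpholino at 130 µmol/L, the controls included. The labels name neither the type of morpholino nor the control sequence, and give no clutch for a replicate, so the p-values cover the spread between these samples, which may be technical. In whole embryos, fewer red cells and less globin RNA per red cell cannot be told apart.

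Each deposited value is the intensity of a probe set, not on a log scale, and differences below are on the scale of log2(intensity + 16). Median intensity lay between 142 and 174 over the 5 arrays. Same-numbered arrays of Bdh2 morphants and controls deviated together from their group means (r = 0.544 across tested probe sets, which are not independent replicates), which is why values are also given within each number. The array with ectopic Bdh2, labelled number 1, is the single array of its group and has no such deviation. The ratio of the 3' to the 5' probe set of the acta1 control, which grows as RNA degrades, was 6.63 with ectopic Bdh2, 11.8 and 3.49 in Bdh2 morphant replicates 1 and 2, and 4.28 and 2.60 in control replicates 1 and 2. Its part in the globin values was not tested. All 5 globin probe sets passed the filter on mean intensity, which was set at 103, and entered a limma fit over 9301 probe sets.

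The embryonic alpha globin gene hbae3 had near-equal values in Bdh2 morphants and controls. The intensity of its first probe set was 25465 with ectopic Bdh2, 40785 and 29022 in Bdh2 morphant replicates 1 and 2, and 39125 and 26341 in control replicates 1 and 2. The second probe set, whose suffix marks probes common to several transcripts, read 25174 with ectopic Bdh2, 38429 and 28491 in Bdh2 morphants, and 38229 and 25781 in controls. Both probe sets put the arrays in the same order, with the replicate 1 arrays of both morpholino groups on top and the array with ectopic Bdh2 lowest. The ranges of Bdh2 morphants and controls overlapped. On the log2 scale the first probe set averaged 15.07 ± 0.35 in Bdh2 morphants and 14.97 ± 0.40 in controls (SD, n = 2 each).

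The embryonic beta globin gene hbbe3 followed a similar pattern. Its intensity was 19629 with ectopic Bdh2, 36501 and 26512 in Bdh2 morphant replicates 1 and 2, and 37402 and 22461 in control replicates 1 and 2. The highest and lowest of the 4 replicated arrays were both controls, so the Bdh2 morphants lay inside the range of the controls. The array with ectopic Bdh2 was again the lowest of all. Mean log2 values were 14.93 ± 0.33 in Bdh2 morphants and 14.82 ± 0.52 in controls (SD, n = 2 each).

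The other embryonic beta globin gene, hbbe2, had lower values in Bdh2 morphants within each replicate number. It read 4149 with ectopic Bdh2. It read 9282 in Bdh2 morphant replicate 1 and 2929 in replicate 2, against 18927 in control replicate 1 and 5181 in control replicate 2. The groups overlapped, because the replicate 1 array of the Bdh2 morphants lay above the replicate 2 array of the controls. Mean log2 values were 12.35 ± 1.17 in Bdh2 morphants and 13.28 ± 1.32 in controls (SD, n = 2 each), so the spread within each group was larger than the difference between them. With 2 arrays per group, that spread is the difference between replicate numbers 1 and 2, which had the same direction in both groups.

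The adult alpha globin gene hbaa1 had low intensities on every array. It read 97.3 with ectopic Bdh2, 264 and 31.7 in Bdh2 morphant replicates 1 and 2, and 187 and 165 in control replicates 1 and 2. The Bdh2 morphants held both the highest and the lowest of the 5 values, and the controls lay between them. The values with ectopic Bdh2 and in Bdh2 morphant replicate 2 were under the intensity used as the filter. The probe set of the adult beta globin gene hbba2 read between 2.55 and 14.0 on the 5 arrays and was not tested.

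**Figure D1:**
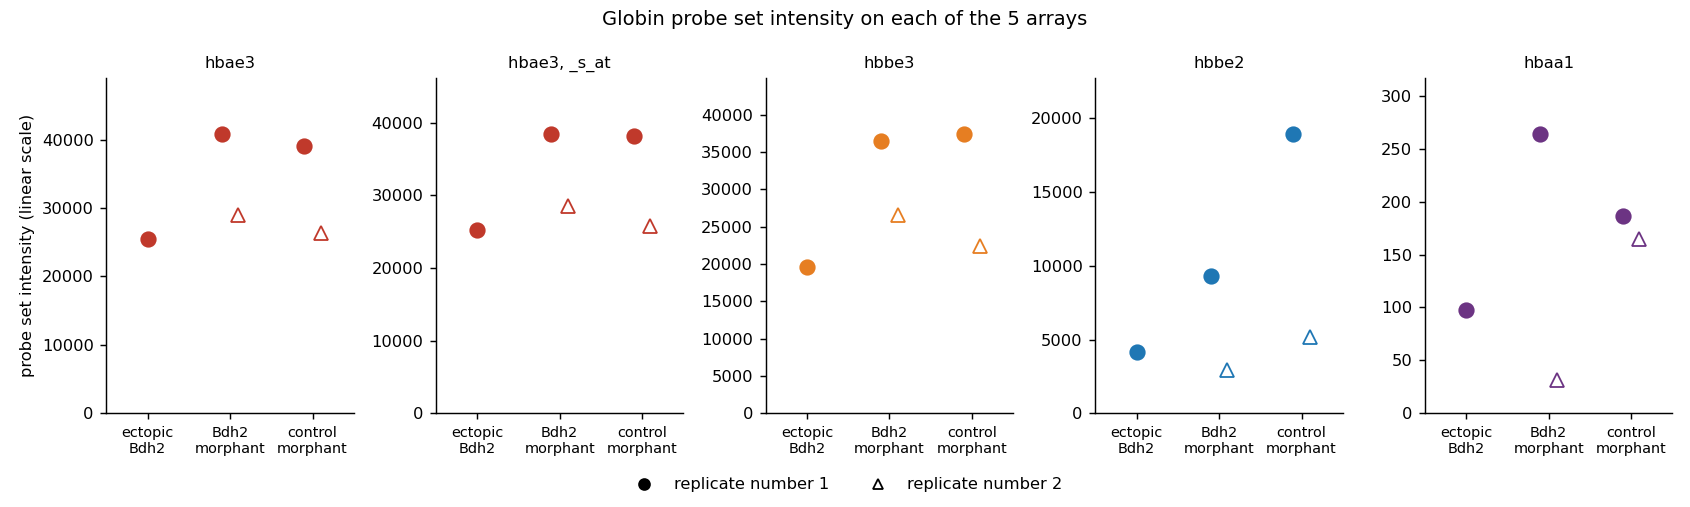
Probe set intensity (linear scale, each panel with its own axis from 0) of the 4 globin genes on the 5 arrays, by group, where each point is 1 array, filled circles are replicate number 1 and open triangles number 2. For hbae3, hbbe3 and hbbe2 the replicate 1 arrays of Bdh2 morphants and controls lie above both replicate 2 arrays, and for hbaa1 the Bdh2 morphants hold the highest value, 264, and the lowest, 31.7.

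Between Bdh2 morphants and controls, 0 of the 5 globin probe sets passed an adjusted p of 0.05 in limma, against 0% of all 9301 tested probe sets. At an unadjusted p under 0.05 the count was also 0 of 5, against 2.12% of all tested probe sets. The largest globin difference was that of hbbe2, at -0.92 (SE 0.71, 95% interval -2.62 to 0.77; limma adjusted p = 1.00). Within replicate numbers 1 and 2 it was -1.03 and -0.82, so Bdh2 morphants were lower within both numbers. Of all tested probe sets, 28.3% were lower in Bdh2 morphants within both numbers, and 23.6% were higher within both. Without control replicate 1 the hbbe2 difference was 0.0099, and without control replicate 2 it was -1.86. Each of these fits sets arrays of unlike number against each other, and the part of the number in these values was not tested.

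The difference of hbaa1 was -0.73 (SE 0.78, 95% interval -2.58 to 1.12; limma adjusted p = 1.00). It had opposite signs within the numbers, at 0.46 in number 1 and -1.92 in number 2. Its size depends on the constant added before the logarithm: it was -0.92 with a constant of 1 and -0.44 with 64. Without Bdh2 morphant replicate 2 it was 0.55, so the negative sign rests on that array.

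For hbae3 the differences between Bdh2 morphants and controls were 0.10 (SE 0.25) and 0.076 (SE 0.24) in its 2 probe sets, and for hbbe3 the difference was 0.10 (SE 0.28). The 95% intervals ran from -0.50 to 0.69 for the first hbae3 probe set and from -0.56 to 0.77 for hbbe3. Within numbers 1 and 2 the first hbae3 probe set differed by 0.060 and 0.14, and hbbe3 by -0.035 and 0.24. The median of the 100 brightest probe sets was 0.034 within number 1 and 0.31 within number 2. The small fitted differences turned negative after quantile normalisation, at -0.076 and -0.082 for the hbae3 probe sets and -0.068 for hbbe3. In none of the 5 globin probe sets did both Bdh2 morphants lie on the same side of both controls, while 14.2% of all tested probe sets had both Bdh2 morphants below and 10.3% had both above.

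**Figure D2:**
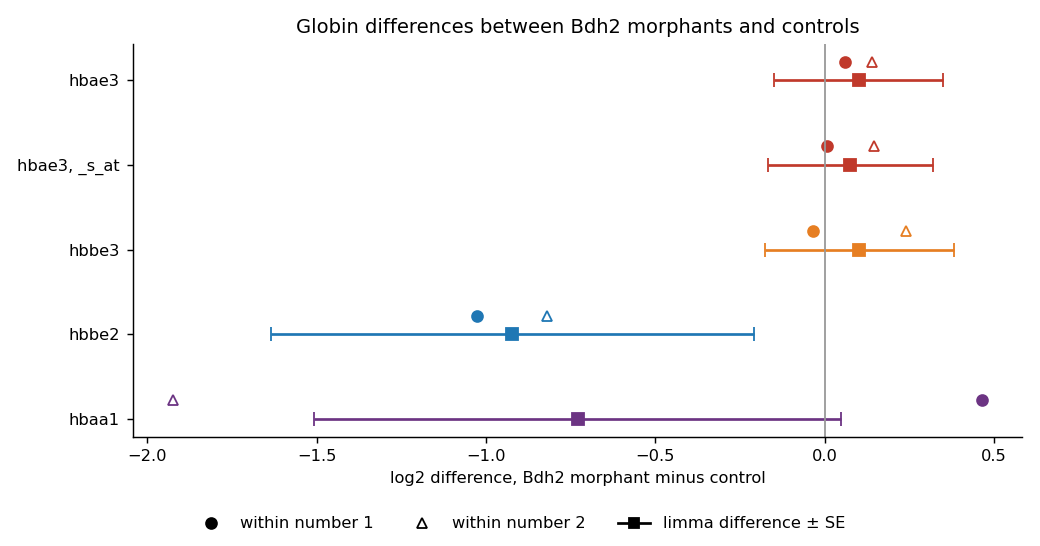
Log2 difference of Bdh2 morphants minus controls for each globin probe set, where squares with bars are the limma difference ± SE over all arrays, circles the difference within replicate number 1 and open triangles within number 2. The hbbe2 points lie left of 0 in both numbers (-1.03 and -0.82), whereas those of hbaa1 lie on opposite sides of 0.

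Set against its neighbour hbbe3, the difference of hbbe2 between Bdh2 morphants and controls was lower by a like amount in both numbers. The hbbe2 difference minus that of hbbe3 was -0.99 within number 1 and -1.06 within number 2. Between replicate 2 and replicate 1 of the same group, the same quantity was as large, at -1.20 in Bdh2 morphants and -1.13 in controls. Against the first hbae3 probe set the difference of hbbe2 was -1.09 and -0.96 within the numbers, and against hbaa1 it had opposite signs, at -1.49 within number 1 and above 0 within number 2. The probe sets of hbbe3 and hbae3 lie in the flat upper range of the scale described further on. Differences between Bdh2 morphant and control arrays of the same number varied less there in general, and the part of that position was not tested. These values were chosen after the data were seen, have no test and do not show which gene changed.

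With ectopic Bdh2, 0 of 5 globin probe sets passed the threshold against Bdh2 morphants, where 0.505% of all tested probe sets passed. The differences were -0.43 (SE 0.31) and -0.39 (SE 0.30) for hbae3, -0.66 (SE 0.34) for hbbe3, -0.33 (SE 0.87) for hbbe2 and -0.028 (SE 0.95) for hbaa1, with limma adjusted p from 0.492 to 0.995. With a single array in that group, its spread is assumed to equal that of the other groups. The median of all tested probe sets in this comparison was 0.12. From Bdh2 morphant replicate 1, the array with ectopic Bdh2 differed by -1.16 for hbbe2 and -1.30 for hbaa1. From replicate 2, it differed by 0.50 and 1.25, so the sign of both genes turned with the replicate chosen.

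Against controls, which also entered the first comparison, 0 of 5 globin probe sets of the array with ectopic Bdh2 passed, where 0.667% of all tested probe sets did. The differences were -0.33 (SE 0.31) and -0.32 (SE 0.30) for hbae3, -0.56 (SE 0.34) for hbbe3, -1.25 (SE 0.87) for hbbe2 and -0.76 (SE 0.95) for hbaa1, with limma adjusted p from 0.768 to 0.870. From control replicate 1 the differences of hbbe3 and hbbe2 were -0.93 and -2.19, and from control replicate 2 they were -0.19 and -0.32. A fit without 1 of the control arrays sets 1 array against 1 array in this comparison. It returns these same differences, so no call is taken from it.

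The array with ectopic Bdh2 was the lowest of the 5 for 3 of the 5 globin probe sets, those of hbae3 and hbbe3, and 21.9% of all tested probe sets were lowest there. Bright probe sets in general were lower on that array. The 100 brightest probe sets averaged 20841 with ectopic Bdh2, 31584 and 31554 in Bdh2 morphants, and 30911 and 26060 in controls. After quantile normalisation, which gives every array the same set of values, the first hbae3 probe set differed by 0.17 from Bdh2 morphants and by 0.092 from controls, a turn of sign, while hbbe3 kept its sign at -0.065 and -0.13. Muscle transcripts moved with this array too. Over all tested genes, 45.5% were lower than in Bdh2 morphants and 43.8% were lower than in controls. The skeletal muscle markers were lower in 5 of 5 genes in both comparisons, with medians of -2.28 against Bdh2 morphants and -2.87 against controls. Their summed intensity was 20381 with ectopic Bdh2, against 106260 and 97918 in Bdh2 morphants and 126849 and 119472 in controls. The part of these bright transcripts in the globin values was not tested.

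The replicate number separated the values of the embryonic globins more widely than the morpholino did. All 5 globin probe sets were lower in replicate 2 than in replicate 1 in both groups, as were 38% of all tested probe sets. Of the 100 brightest probe sets, 40 were lower in replicate 2 in Bdh2 morphants (median 0.028) and 97 in controls (median -0.23). The difference of replicate 2 from replicate 1 for hbbe2 was -1.66 in Bdh2 morphants and -1.87 in controls. It exceeded 1 on the log2 scale in both groups for that 1 globin probe set, and for 2.12% of all tested probe sets. For hbae3 the differences were -0.49 in Bdh2 morphants and -0.57 in controls in the first probe set, and -0.43 and -0.57 in the second. For hbbe3 they were -0.46 in Bdh2 morphants and -0.74 in controls. The adult gene hbaa1 differed by -2.55 in Bdh2 morphants and by -0.16 in controls, unlike the embryonic genes. The labels do not say what the number stands for, and no test was made between numbers.

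Other erythroid transcripts differed between the numbers in the same direction. Of the 16 tested genes of the erythroid list, 14 were lower in replicate 2 in both groups, with a median of -1.33 in Bdh2 morphants and -1.30 in controls, and over all 6325 tested genes 2424 were lower in both, with medians of -0.091 and -0.038. The carbonic anhydrase gene cahz differed by -2.18 in Bdh2 morphants and -1.97 in controls. The anion exchanger gene slc4a1a, whose product spans the red cell membrane, differed by -1.89 and -2.20. The erythroid transcription factor gene gata1a differed by -2.01 and -2.14, and alas2, the erythroid enzyme that starts heme synthesis, by -2.65 and -2.82. Each difference of these named genes was larger in size than that of hbae3 or hbbe3. Other members of the erythroid list differed less, such as lmo2 at -0.23 in Bdh2 morphants and -0.32 in controls. The list member nt5c3a was higher in replicate 2, by 0.16 in each group. The counted members klf1 and tal1 read under the filter intensity in replicate 2 of both groups, so they passed the filter through other arrays. Of 3 untested list members, nfe2 and epoa were lower in replicate 2 in both groups, and ank1a was higher in both. Of the 12 tested heme genes, among them alas2, 8 were lower in replicate 2 in both groups. The medians of the 12 were -0.31 in Bdh2 morphants and -0.51 in controls. Among the 8, fech read under the filter intensity in replicate 2 of both groups. The untested heme gene slc25a37 was higher in replicate 2 in both groups.

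Tested leukocyte markers showed the same direction, so among tested genes it was not limited to red cell genes. Of 7 tested leukocyte markers, 7 were lower in replicate 2 in both groups, with medians of -1.77 in Bdh2 morphants and -1.20 in controls. Over all 6325 tested genes, 2424 were lower in both. The tested markers marco and spi1b read under the filter intensity in replicate 2 of both groups. Of 4 untested markers, ptprc and csf1ra were lower in both groups. The untested rag1 and ikzf1 were higher in replicate 2 in Bdh2 morphants, by 0.20 and 0.043, and lower in controls. The intensity of the leukocyte markers was summed over 11 genes on the array. The sum was 5681 with ectopic Bdh2, 7226 and 2869 in Bdh2 morphant replicates 1 and 2, and 7978 and 3055 in control replicates 1 and 2. Most of it came from lyz, with 3959 with ectopic Bdh2, 4722 and 2209 in Bdh2 morphants, and 5599 and 2103 in controls. The 3 endothelial markers on the array summed to 459 with ectopic Bdh2, 409 and 277 in Bdh2 morphants, and 322 and 407 in controls. None of these markers read 0, but 3 leukocyte and 2 endothelial markers stayed under the filter intensity on every array. Of the skeletal muscle markers, 1 of 5 was lower in replicate 2 in both groups, with medians of -0.075 in Bdh2 morphants and 0.028 in controls. The part of blood cell number or stage in the globin values was not tested.

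**Figure D3:**
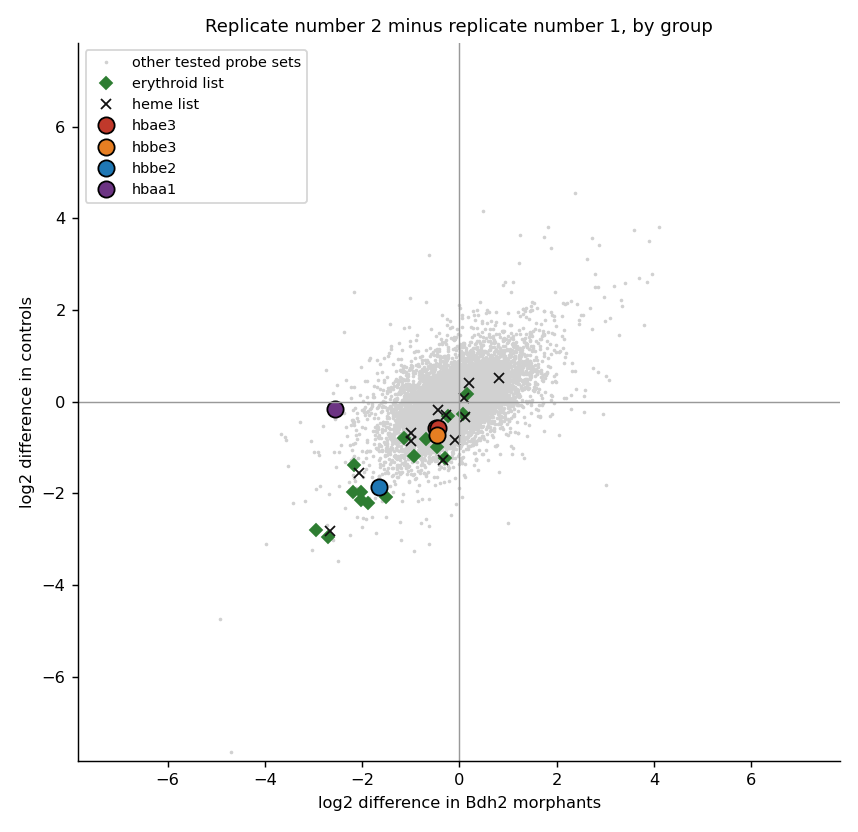
Log2 difference of replicate 2 minus replicate 1 in Bdh2 morphants (horizontal) and in controls (vertical), where each point is 1 tested probe set, with globin genes, the erythroid list and the heme list marked. The hbbe2 point lies at -1.66 and -1.87 among erythroid genes, the hbae3 and hbbe3 points lie nearer the centre, and hbaa1 lies apart at -2.55 and -0.16.

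Position on the intensity scale differed between the globin probe sets. On every array the 2 hbae3 probe sets and that of hbbe3 were among the 100 highest. The first hbae3 probe set stood at 76.6% of the array's highest intensity with ectopic Bdh2, at 78.0% and 66.1% in Bdh2 morphant replicates 1 and 2, and at 82.9% and 76.7% in control replicates 1 and 2. The scale was flat in that range: the intensity at rank 100 was between 45.3% and 62.8% of the highest, whereas at rank 1000 it was between 4.56% and 6.96% of it. The hbbe2 probe set stood at 12.5% with ectopic Bdh2, 17.8% and 6.67% in Bdh2 morphants, and 40.1% and 15.1% in controls. That of hbaa1 was under 1% on all arrays.

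**Figure D4:**
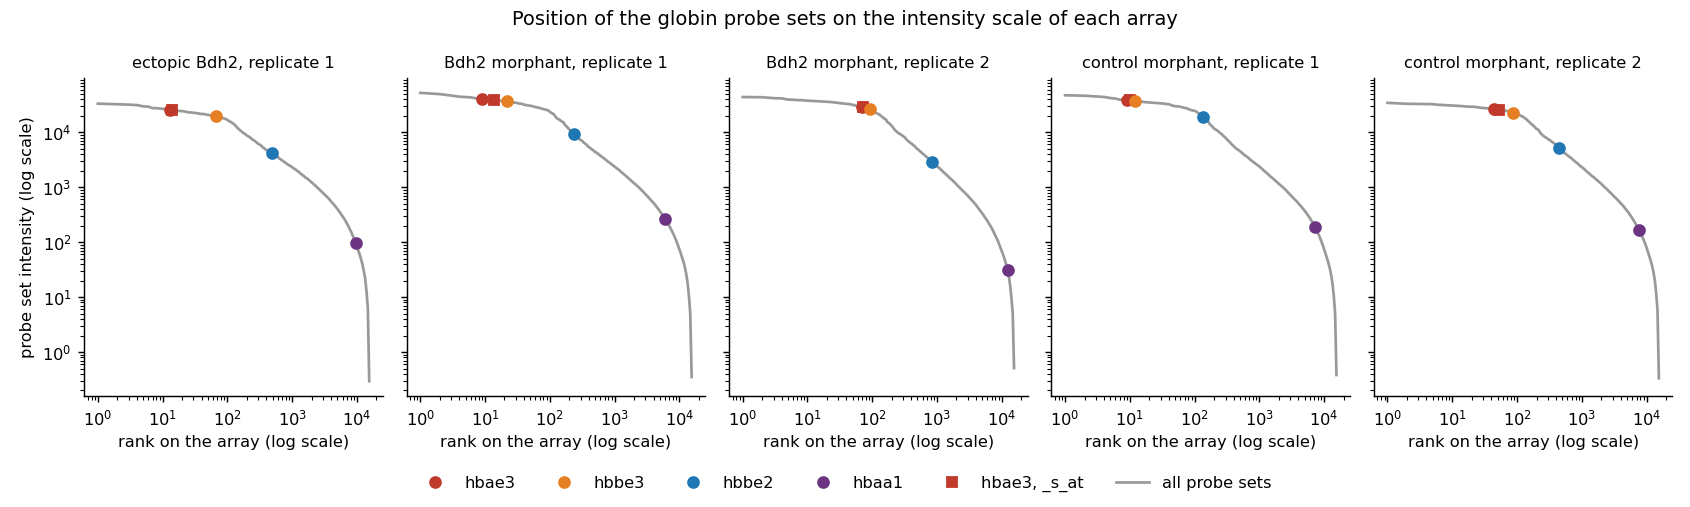
Intensity of all probe sets against their rank on each array (both axes logarithmic), with the globin probe sets marked by colour. The curves are flat down to about rank 100, where the hbae3 and hbbe3 probe sets lie on all 5 arrays, while hbbe2 and hbaa1 lie on the falling part.

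Differences between Bdh2 morphant and control arrays of the same number varied less among bright probe sets in general. Over the 100 brightest, the SD of the difference between Bdh2 morphant and control was 0.146 within number 1 and 0.171 within number 2, against 0.461 and 0.553 over all tested probe sets. The array with ectopic Bdh2 was shifted there. Its median difference over the 100 brightest was -0.56 and -0.60 from Bdh2 morphant replicates 1 and 2, and -0.52 and -0.29 from control replicates 1 and 2. Over all tested probe sets these medians were 0.066, 0.19, 0.11 and 0.11. A bright and a dim probe set were both annotated to the same 2 embryonic alpha globin genes. The annotation does not show that both read the same transcripts, and the suffix of the bright one marks probes common to several transcripts. The part of the position on the scale in their differences was not tested. The bright probe set read 31935 with ectopic Bdh2, 52273 and 33585 in Bdh2 morphants, and 47210 and 29367 in controls. The dim probe set read 697 with ectopic Bdh2, 2458 and 834 in Bdh2 morphants, and 2020 and 801 in controls. The difference of replicate 2 from replicate 1 was -0.64 in Bdh2 morphants and -0.68 in controls for the bright probe set, and -1.54 and -1.32 for the dim one. Both gave the same small difference of Bdh2 morphants from controls, 0.17 (SE 0.29) for the bright and 0.17 (SE 0.63) for the dim probe set (limma adjusted p = 1.00 for each). The probe set shared by 3 other embryonic beta globin genes read 31345 with ectopic Bdh2, 49562 and 36156 in Bdh2 morphants, and 46337 and 31138 in controls, a difference of Bdh2 morphants from controls of 0.16 (SE 0.24; limma adjusted p = 1.00).

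Genes that supply heme to the globin chains were compared as a list, as were erythroid genes. Of 20 listed genes of heme synthesis and supply, 13 were on the array and 12 were tested. In Bdh2 morphants 9 of the 12 were at lower values than in controls (median -0.28), and 7 were lower within both numbers. Of 16 tested erythroid genes, 15 were at lower values (median -0.32), and 11 were lower within both numbers. Over all 6325 tested genes, 2986 had lower values, the median was 0.019 and 1671 were lower within both numbers. Lower values were not limited to these lists. Skeletal muscle markers were at lower values in 5 of 5 genes (median -0.32), 4 of them within both numbers. Leukocyte markers were at lower values in 5 of 7 tested genes (median -0.23), 2 of them within both numbers. In all 4 lists 0 genes passed the threshold of the fit over all probe sets, so these are descriptions of the lists and not calls.

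Among heme genes, fech, whose product inserts iron into the heme ring, read 104 with ectopic Bdh2, 165 and 27.2 in Bdh2 morphants, and 240 and 71.7 in controls. Its difference between Bdh2 morphants and controls was -0.50 within number 1 and -1.02 within number 2. The values in Bdh2 morphant replicate 2 and control replicate 2 were under the intensity used as the filter. The smallest unadjusted p of the list was that of clpxa, a mitochondrial unfoldase gene, with -0.43 and -0.63 within the numbers, followed by uros, a heme synthesis enzyme, with -0.35 and -0.34. The erythroid gene nt5c3a, which codes for a nucleotidase, was the single list member with higher values, 0.58 in number 1 and 0.58 in number 2. Against these, cahz differed by -0.59 and -0.80, and dmtn, a red cell membrane skeleton gene, by -0.14 and -0.94. The gene lmo2, a transcription factor partner of blood progenitors, differed by -0.56 and -0.48. It read 99.3 and 82.0 in Bdh2 morphants, under the filter intensity, and 154 and 120 in controls. Thus lmo2 passed the filter through the controls, and the erythroid counts above include it.

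With ectopic Bdh2, 10 of the 16 erythroid genes had lower values than in controls (median -0.40), and 1 passed the threshold, tmod4 (-2.65, SE 0.37; limma adjusted p = 0.0360), a tropomodulin that muscle also expresses. The values of tmod4 lay nearer those of the skeletal muscle markers than those of the erythroid list. Against Bdh2 morphants tmod4 differed by -2.14, where the muscle median was -2.28. Between replicate numbers tmod4 differed by 0.078 in Bdh2 morphants and -0.27 in controls, where the erythroid medians were -1.33 and -1.30. Over all 6325 tested genes, 43.8% had lower values than in controls and 49 fell past the threshold, beside the 0.667% of probe sets given above. Against Bdh2 morphants 8 of 16 were lower (median -0.040) and 0 passed, where 45.5% of all tested genes were lower. Of 12 heme genes, 8 were lower than in controls (median -0.27) and 5 were lower than in Bdh2 morphants (median 0.068), with 0 past the threshold in either comparison. The medians over all tested genes were 0.088 against controls and 0.077 against Bdh2 morphants.

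**Figure D5:**
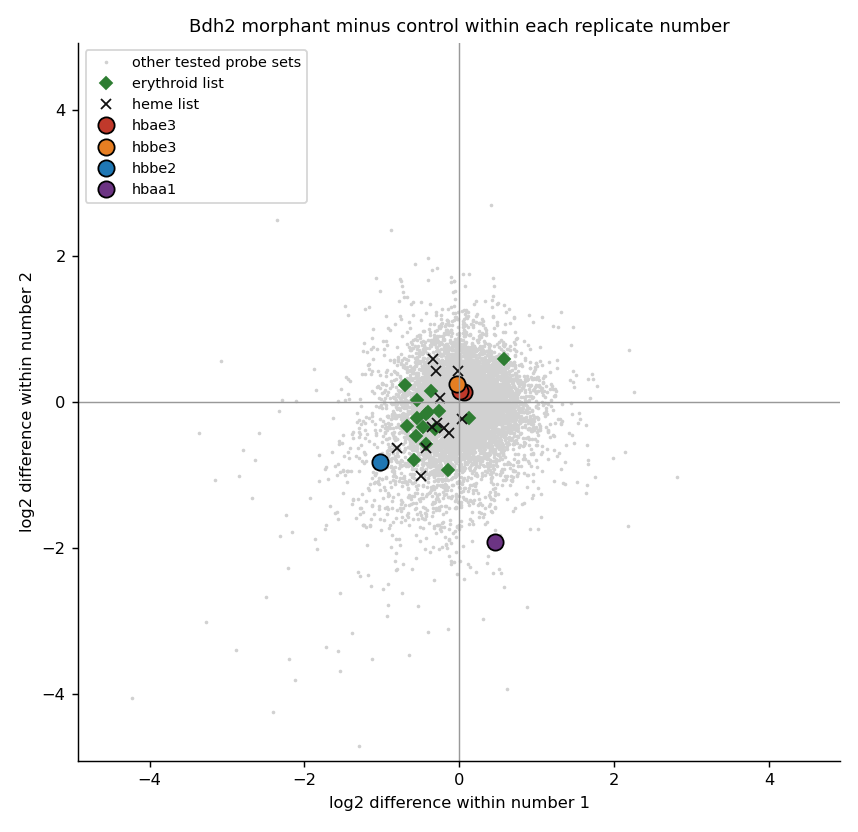
Log2 difference of Bdh2 morphant minus control within replicate number 1 (horizontal) and number 2 (vertical), where each point is 1 tested probe set, with globin genes, the erythroid list and the heme list marked. The hbbe2 point lies at -1.03 and -0.82, lower in both numbers like 11 of 16 erythroid genes, while hbae3 and hbbe3 lie near 0 and hbaa1 at 0.46 and -1.92.

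Globins outside the hemoglobin clusters were mostly at low intensity. Myoglobin (mb), an oxygen-binding globin of muscle in mammals, was the single other globin with its own tested probe set. It read 295 with ectopic Bdh2, 280 and 112 in Bdh2 morphants, and 648 and 282 in controls. Both Bdh2 morphants lay below both controls, by a narrow margin. Of all tested probe sets, 14.2% had both Bdh2 morphants below both controls. The mb difference was -1.19 (SE 0.55, limma adjusted p = 1.00), with -1.16 and -1.21 within the numbers. The genes cygb1, ngb and adgb were not tested, since their mean intensities were under the filter.

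The 4 globin profiles were set beside those of 7219 other tested probe sets with 1 gene symbol, by the root mean square distance between log2 values centred on their own mean over the 5 arrays. The profiles of hbae3 and hbbe3 were 0.106 apart, and the 2 hbae3 probe sets 0.0243 apart. The distance of hbbe2 was 0.735 from hbae3 and 0.697 from hbbe3, and hbaa1 lay 0.634 to 0.785 from the other genes. The nearest profiles to hbae3 were those of asb6 (0.0151), ciao1 (0.0539) and igfbp3 (0.0657), against a median distance of 0.435 over all of them. Both asb6 and igfbp3 read under the filter intensity with ectopic Bdh2 and in replicate 2 of both groups. At such intensities the log2 profile depends on the constant added before the logarithm. Nearest to hbbe3 were dnajc3a (0.0491), tspo (0.0645) and anxa11a (0.0857), where the median was 0.505. Nearest to hbbe2 were drl (0.237), tent5c (0.263) and krt91 (0.268), with a median of 0.993. Nearest to hbaa1 were chchd3b (0.225), coa3b (0.308) and fn1b (0.324), with a median of 0.929. The mean profile of the 4 genes was nearest to those of oxct1a (0.123), fthl28 (0.153), the heme synthesis gene cpox (0.155), smap1 (0.157) and ucp3 (0.160). With 5 arrays, many profiles lie close together, and these distances are descriptions with no test.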

How the data were processed

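Transcripts were measured on 5 Affymetrix zebrafish arrays, with groups taken from the sample titles. Each deposited value is a probe set's intensity on a linear scale, made with Affymetrix Expression Console per the submitters' processing notes; its version, summarisation and scaling were not given in the sources used here. Of 15617 probe sets, 115 controls were left out, and 9301 with a mean intensity above the 40th percentile (103) were tested. Intensities were converted to log2(intensity + 16) and fitted in limma 3.58.1 (R 4.3.3) with a mean per group over all arrays and an intensity-dependent prior, 2 residual and 4.80 prior degrees of freedom. Tests were two-sided, with Benjamini-Hochberg adjustment over all tested probe sets and a threshold of 0.05. The number of arrays limits the precision. Of the probe sets, 10795 had 1 symbol, 135 several and 4572 none; gene IDs of 10711 matched the RefSeq table and 1 symbol was updated. Lists used the probe set with the highest mean for each gene. Named genes were all globins, list members with the smallest p, defining markers and the nearest profiles. The members and lists were chosen with earlier results of these data known. The pipeline was tested on simulated data that left out the shared deviation of same-numbered arrays, so that trial did not cover it. Alternatives covered moderation, filter, scaling, constant, a replicate block and each replicated array left out.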

Additional observations from a re-analysis of the deposited data

How the results depend on the processing

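For single globin probe sets, 12 alternatives gave 180 values, of which 160 kept their sign. Many of these signs were fixed in advance. Changing the moderation or the filter leaves each difference as it was. So does the block between Bdh2 morphants and controls, and so does leaving out an array of a group outside the comparison. The count of kept signs therefore does not measure how stable the differences are. After quantile normalisation the differences of Bdh2 morphants from controls turned to -0.076 and -0.082 in the hbae3 probe sets and -0.068 in hbbe3, and those of ectopic Bdh2 turned to 0.17 and 0.19 in hbae3 against Bdh2 morphants and 0.092 and 0.11 against controls. With a constant of 1, hbaa1 with ectopic Bdh2 against Bdh2 morphants was 0.080. With 1 array left out, the difference of Bdh2 morphants from controls ran from -0.19 to 0.39 and -0.21 to 0.36 in the hbae3 probe sets, -0.27 to 0.47 in hbbe3, -1.86 to 0.0099 in hbbe2 and -2.01 to 0.55 in hbaa1; that of ectopic Bdh2 against Bdh2 morphants ran from -1.16 to 0.50 in hbbe2 and -1.30 to 1.25 in hbaa1. Leaving out an array sets unlike replicate numbers against each other.

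The labels name no batch for the replicate number. With the replicate block, hbbe2 in Bdh2 morphants against controls stayed at -0.92 (SE 0.20; limma adjusted p = 0.369). With the array of ectopic Bdh2 in block 1, 1 globin probe set passed against controls, hbbe2 at -2.13 (adjusted p = 0.0141); in block 2 it was -0.37 (adjusted p = 0.418), and against Bdh2 morphants hbbe2 turned to 0.55 and hbaa1 to 0.65. Without a control array, the comparison of ectopic Bdh2 with controls has a single array on each side. No globin call is taken from those fits.

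Over all probe sets, the count of Bdh2 morphants against controls was 0, but 2 with the block in either form, and 0 to 5 with an array left out. That of ectopic Bdh2 against Bdh2 morphants was 47, but 0 without the intensity-dependent prior, 17 without the filter, 144 and 830 with the array in block 1 and 2, and 0 to 222 with an array left out. Against controls it was 62, but 26, 38, 134 and 353 under the same settings, and 84 to 127 with an array left out. Centring each array moved the median of all tested probe sets between ectopic Bdh2 and Bdh2 morphants to -0.079, where it was 0.12 without centring. The first hbae3 probe set lay at -0.56 from that median either way. This was fixed in advance, because centring shifts every probe set of an array by the same amount. The cause of the changes in the counts was not tested.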

Other observations

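Genes that clear heme and free hemoglobin were represented by 4 genes on the array, of which 2 were tested. The haptoglobin gene hp, whose product binds free hemoglobin in mammals, read 121 with ectopic Bdh2, 610 and 1512 in Bdh2 morphant replicates 1 and 2, and 1103 and 1031 in control replicates 1 and 2. The array with ectopic Bdh2 was below the other 4, and the Bdh2 morphants lay on both sides of the controls. Its differences between Bdh2 morphants and controls were -0.84 within number 1 and 0.55 within number 2. The biliverdin reductase gene blvrb, which is also on the erythroid list, read 1741 with ectopic Bdh2, 2242 and 1832 in Bdh2 morphants, and 3650 and 1555 in controls. Neither gene passed the threshold in any of the 3 comparisons.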
